A study of Mus musculus with 2 samples.

Results

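The genes described here are 29 genes of cholesterol metabolism, in 2 sets that were fixed by symbol: 16 genes of cholesterol synthesis and its control, and 13 genes of lipid uptake, storage and efflux. All 29 symbols were found among the 55401 genes of the count matrix, and 26985 of those genes had at least 1 UMI (a unique molecular identifier, which counts 1 captured RNA molecule). The cells came from lungs of mice taken 7 weeks after they were first given urethane, a carcinogen that induces lung tumours. There was 1 wild-type sample and 1 Siah1a/2 KO sample, both treated, and no untreated lung was among them. Live cells that bound an antibody to CD45.2, a form of the CD45 protein of white blood cells, were sorted and sequenced from the 3' end of their RNA in droplets. Siah1a and Siah2 encode ubiquitin ligases, and the labels do not say which cells lacked them, nor how many mice made up a sample. The matrix held 2 libraries told apart by the barcode ending, which no source ties to a genotype. They are called library 1 and library 2, and no genotype comparison was made. With 1 library of each kind there was no test, and every interval is an exact 95% interval that covers counting error only.

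Cells build cholesterol from acetyl-CoA through mevalonate, farnesyl diphosphate, squalene and lanosterol. When sterol in the endoplasmic reticulum falls, the transcription factor SREBP2 (Srebf2) is released to the nucleus and raises transcription of most of these enzymes, while Insig1 holds its precursor back when sterol is ample. When sterol is in excess, oxysterols activate the receptor LXR-alpha (Nr1h3), which raises the exporters Abca1 and Abcg1 and the lipid carrier Apoe. Macrophages take in lipid with the help of Cd36 and lipoprotein lipase (Lpl), free cholesterol in lysosomes with Lipa, and store its esters, made by Soat1, in droplets coated with Plin2. In the lung, alveolar macrophages clear surfactant lipid and need PPAR-gamma (Pparg) to form.

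The DNA before the start sites of the synthesis genes is shown because these genes are known to share a regulator, and because several of them were high in the same cells below. RefSeq start-site windows on GRCm38.p6 were held for 12 of the 16 synthesis genes and 10 of the 13 lipid genes. The 250 bases before each start were searched on both strands. Sqle, Fdft1, Fdps and Stard4 had no window, although Sqle, Fdft1 and Fdps are among the genes high in dendritic cells below. The sterol regulatory element TCACNCCAC was found in 1 of the 12 synthesis genes, Hmgcs1, in 0 of the 10 lipid genes, and in 331 of 27025 genes of the whole table (1.22%). The CCAAT box, the binding motif of the factor NF-Y, was found for 12 of 12 synthesis genes, 7 of 10 lipid genes and 37.5% of all genes. Srebf1 and Dhcr7 have several start sites, and the box stood before 2 of 3 and 1 of 3 of them. The E-box CACGTG stood before 3 of 12 synthesis genes (Dhcr7, Insig1 and Sc5d), 1 of 10 lipid genes (Abca1) and 6.86% of all genes. Below are the windows of 3 synthesis genes and 2 lipid genes, 5′ to 3′ on the strand of the gene and ending at the base before the start, with every match to TCACNCCAC or CCAAT in capitals.
Hmgcs1 (chr13:119690101-119690350, plus strand): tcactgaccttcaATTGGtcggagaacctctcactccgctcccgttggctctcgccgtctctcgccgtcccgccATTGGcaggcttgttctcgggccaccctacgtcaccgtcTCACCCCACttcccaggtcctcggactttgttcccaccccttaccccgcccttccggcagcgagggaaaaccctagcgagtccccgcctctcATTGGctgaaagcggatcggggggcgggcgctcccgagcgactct
Mvk (chr5:114444019-114444268, plus strand): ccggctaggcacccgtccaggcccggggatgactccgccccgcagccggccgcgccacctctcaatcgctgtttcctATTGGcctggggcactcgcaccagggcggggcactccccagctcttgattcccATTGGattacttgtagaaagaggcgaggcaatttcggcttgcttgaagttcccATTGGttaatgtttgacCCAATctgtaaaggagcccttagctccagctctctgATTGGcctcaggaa
Mvd (chr8:122443423-122443672, minus strand): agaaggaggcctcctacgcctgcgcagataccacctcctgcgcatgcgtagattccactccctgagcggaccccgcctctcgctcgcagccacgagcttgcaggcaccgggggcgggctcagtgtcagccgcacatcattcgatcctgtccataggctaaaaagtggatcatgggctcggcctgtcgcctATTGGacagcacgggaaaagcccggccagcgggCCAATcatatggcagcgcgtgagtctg
Plin2 (chr4:86670060-86670309, minus strand): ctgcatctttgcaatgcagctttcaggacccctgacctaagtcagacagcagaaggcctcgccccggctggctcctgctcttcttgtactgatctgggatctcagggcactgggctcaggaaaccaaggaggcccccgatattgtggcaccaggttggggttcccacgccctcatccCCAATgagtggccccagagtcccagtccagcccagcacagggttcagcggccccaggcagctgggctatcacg
Abca1 (chr4:53159896-53160145, minus strand): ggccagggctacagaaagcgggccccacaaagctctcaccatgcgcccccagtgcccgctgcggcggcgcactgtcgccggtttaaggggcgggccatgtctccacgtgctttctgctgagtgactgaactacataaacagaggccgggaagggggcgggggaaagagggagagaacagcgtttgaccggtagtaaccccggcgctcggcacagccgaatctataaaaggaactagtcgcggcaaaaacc
Hmgcs1 carried the regulatory element 137 bases before the start and 3 CCAAT boxes, the nearest 45 bases before it. Mvk, the kinase that phosphorylates mevalonate, carried 5 CCAAT boxes within 173 bases, and Mvd, the decarboxylase later in the mevalonate chain, carried 2. Plin2 carried 1 and Abca1 none. In these windows no match to 1 motif overlapped a match to the other. A match is a string of letters, not a measured binding site.

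After filtering, 8066 cells of library 1 and 6113 of library 2 were kept, with a median of 8661 and 7875 UMIs. Marker genes, none of them among the 29, placed 11371 of the 14179 cells in 14 gates, and each gate's cells were summed within a library and divided by its UMI total to give CPM, the usual depth-scaled level. The gates held from 2319 CD8 T cells in library 1 to 45 B cells in library 2, and median depth ran from 2552.5 UMIs in neutrophils to 12942 in conventional type 2 dendritic cells (cDC2). The 842 barcodes with markers of 2 lineages, 492 and 350 of them, were kept out of all gates, and 11 barcode sequences occurred in both libraries. Markers of alveolar macrophages were near absent: Ear1, Car4, Cidec and Fabp1 had 0 UMIs, Marco had 5 and 0, and the 7 markers together had 5 and 1 UMIs in the C1q macrophage gate. RNA of the complement genes C1qa, C1qb and C1qc, which macrophages make, was also present outside macrophages, at 71.3 to 137.5 CPM in the other gates of library 1 and 32.3 to 75.5 CPM in those of library 2. Of the 29 gene IDs, 28 were found in the GENCODE M21 annotation. Exons of 4 members overlap another gene on the same strand (Fdps, Nr1h3, Srebf1 and Scd2) and those of 6 a gene on the other strand (Idi1, Hmgcs1, Lss, Srebf1, Cyp51 and Lpcat3). No source read here says whether counting used strand, so reads of these genes may be shared with their neighbours.

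Cholesterol synthesis RNA was highest in dendritic cells. The 16 synthesis genes summed to 799 CPM (746.5 to 853.3) in cDC2 of library 1 and 690.1 (640.8 to 742.2) in those of library 2, and to 529.7 and 578.8 CPM in migratory dendritic cells, which carry Ccr7, Fscn1 and Ccl22. Regulatory T cells (540.2 and 503.7) and non-classical monocytes (509 and 481.7) had intervals that overlapped those of migratory dendritic cells. In library 1 the value of regulatory T cells lay above that of migratory dendritic cells. Classical monocytes had 471 and 442 CPM, CD4 T cells 379 and 410.1, and C1q macrophages 314 and 313. CD8 T cells had 317 and 308.5, NK cells 253 and 261, gamma-delta-type T cells that carry Trdc 250.3 and 228, and neutrophils 229 and 273. Among the 14 gates, the cDC2 value lay above the interval of every other gate in both libraries. Plasmacytoid dendritic cells, too few to be one of the 14 gates (23 and 24 cells), had still more, at 1032 CPM (908 to 1168) and 1283 (1149 to 1429). Conventional type 1 dendritic cells (34 and 9 cells) had 653 (599.6 to 710.5) and 688 (590.3 to 797.7). Highest and lowest levels below are among the 14 gates unless these cells are named.

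**Figure D1:**
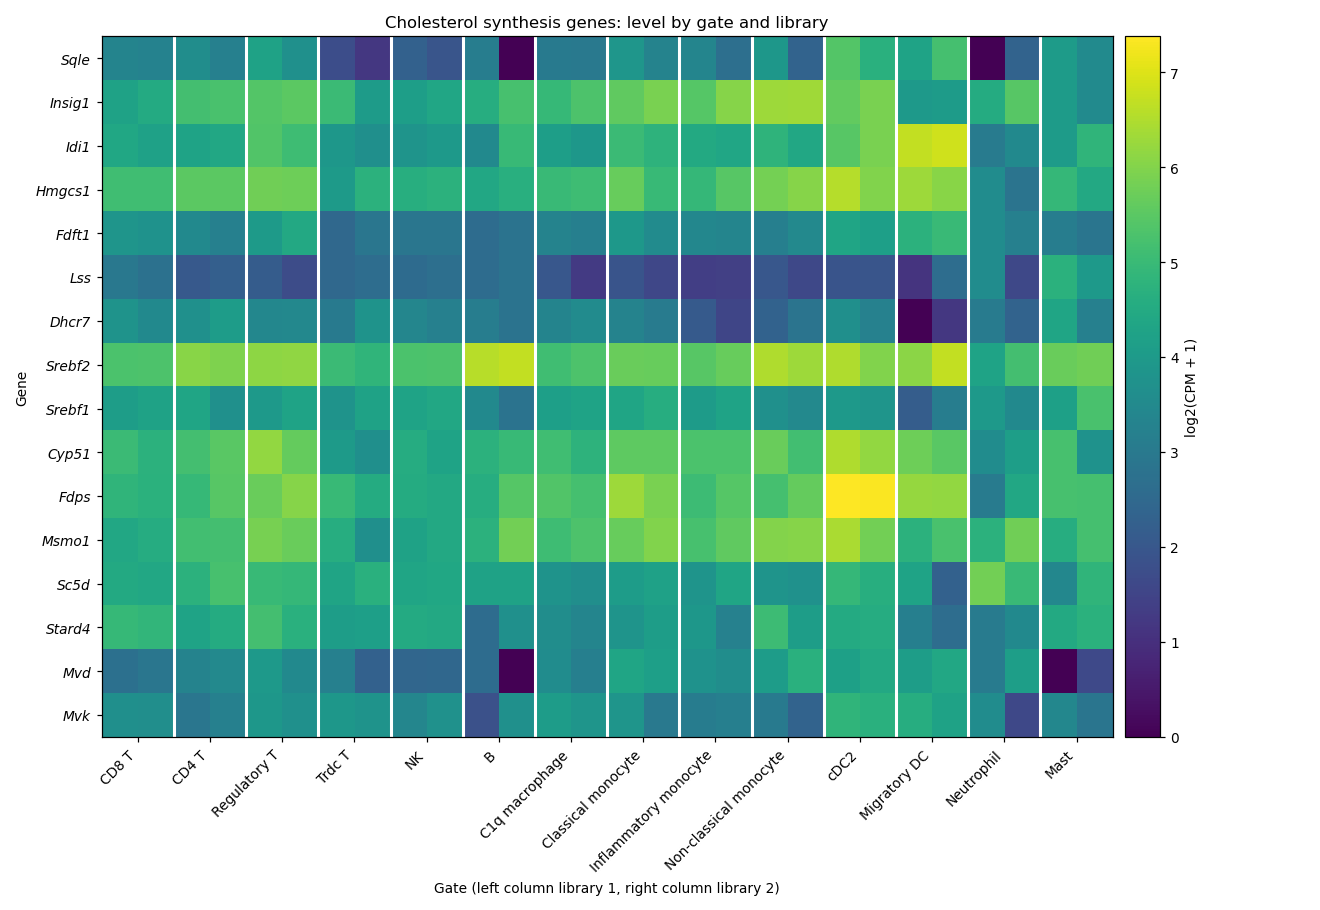
Level of each synthesis gene as log2(CPM + 1), with 1 row per gene and 2 columns per gate (library 1 left, library 2 right). Fdps is brightest in cDC2 (165 and 162 CPM) and Idi1 in migratory dendritic cells (103 and 114 CPM).

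Within cDC2, Sqle, Cyp51, Fdps and Mvk, 4 of the 16 synthesis genes, were past 2-fold over the mean of the other gates in both libraries, against 2.57% of the 14333 genes with at least 50 UMIs, and 0 were past 2-fold lower (all genes 22.1%). The median synthesis gene stood at a log2 ratio of 0.78 and 0.64 in cDC2, and the median of all genes at -0.36 and -0.36. Of 15 other genes of the synthesis pathway, outside the 16, 1 was past 2-fold higher in cDC2 and 0 lower. Their medians were 0.09 and 0.30, above those of all genes but below those of the 16. Fdps, which makes farnesyl diphosphate, the branch point to sterols and to protein prenylation, had 165 CPM (142 to 191) and 162 (138 to 188), 4.415-fold and 3.96-fold the mean of the other gates. The next gates for Fdps were classical monocytes in library 1 (77.3) and migratory dendritic cells in library 2 (71.1), whose intervals lay below. Sqle, the squalene epoxidase and a slow step of the pathway, had 41.1 and 24.7 CPM in cDC2, 4.09-fold and 2.94-fold. Migratory dendritic cells overtook cDC2 for Sqle in library 2, with 36.2 CPM from 28 UMIs, and the intervals of the pair overlapped in both libraries. Cyp51, which demethylates lanosterol, had 88.6 and 72.2 CPM in cDC2 and 71.7 and 48.5 in regulatory T cells, with overlapping intervals. Mvk had 27.4 and 24.7 CPM in cDC2 and 23.2 and 18.1 in migratory dendritic cells. Hmgcs1, an early enzyme of the mevalonate chain, had 93.2 and 61.8 CPM in cDC2 and 77.7 and 65.9 in migratory dendritic cells, and missed 2-fold in library 2. Few cells carried much of this RNA: the 5 cDC2 with most Fdps UMIs held 29.8% of them in library 1 and 45.9% in library 2, and the level without them was 123 and 95.7 CPM.

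In migratory dendritic cells Idi1 and Fdft1 stood out. Idi1, which isomerises isopentenyl diphosphate, had 103 CPM (82.8 to 127) and 114 (91.2 to 140.1), 4.81-fold and 4.86-fold the other gates, and cDC2 came second at 42.9 and 58.9 CPM with intervals that lay below. Fdft1, the squalene synthase, had 25.5 and 31.0 CPM, 2.47-fold and 3.09-fold. These 2 were the synthesis genes past 2-fold higher (all genes 6.8%), and 4 of 16 were past 2-fold lower, namely Insig1, Dhcr7, Srebf1 and Stard4, no larger a share than the 32.3% of all genes. Insig1 had 15.1 and 15.5 CPM in migratory dendritic cells against 47.5 and 58.9 in cDC2. Dhcr7, the last enzyme of one branch to cholesterol, had 0 and 1 UMI there in 862796 and 773988 UMIs, and a count of 0, read as at most 3 counts, allows up to 3.48 CPM in library 1. Stard4, which carries cholesterol between membranes, had 8.11 and 5.17 CPM. Srebf1, the sister factor of SREBP2 that drives fatty acid synthesis, had 3.48 and 7.75. Srebf2 itself was not low, at 67.2 and 102 CPM. The medians of the 16 genes were 0.37 and 0.50 there, and those of all genes -0.75 and -0.64. Of the 15 other genes of the pathway, 2 were past 2-fold higher and 2 lower, with medians of -0.54 and -0.38. With gates scaled by the median of ratios in place of the total, 5 synthesis genes were past 2-fold higher in migratory dendritic cells, and with cells that held a C1q UMI left out of all gates but C1q macrophages, which kept 27 and 38 migratory dendritic cells, 0 were.

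In the few plasmacytoid dendritic cells several enzymes lay above the highest of the 14 gates in both libraries. Fdps was at 244 and 274 CPM there and at 172 and 149 in the type 1 cells. Hmgcs1 was at 103 and 135 CPM in the plasmacytoid cells, Msmo1, which removes sterol methyl groups, at 128 and 155, and Srebf2 at 115.6 and 150.8. Mvd was at 49.5 and 38.7 CPM, from 12 and 10 UMIs, and Dhcr7 at 49.5 and 54.1, from 12 and 14. Of the type 1 cells, 11 and 8 passed the cycling minimum described below, as did 2 and 6 of the cDC2. With cycling cells left out, 4 synthesis genes were still past 2-fold higher in cDC2.

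The sterol sensor and the transcription factors had their highest levels in other gates than most enzymes, but with intervals that overlapped the runner-up in both libraries. Insig1, itself a target of SREBP2, was highest in non-classical monocytes in both libraries (77.2 and 79.6 CPM) and the only synthesis gene past 2-fold there (all genes 6.02%), at 2.61-fold and 2.22-fold. Its level in the runner-up overlapped in both libraries (cDC2 at 47.5 and inflammatory monocytes at 64.9). Srebf2 was highest in B cells at 94.9 CPM (66.9 to 131) and 103 (60.1 to 165), from 37 and 17 UMIs, and was second in cDC2 at 89.5 and in migratory dendritic cells at 102. Its range over gates was narrow, from 26.7 to 99.1 CPM as means of the libraries. Srebf1 ranged from 5.62 to 27.5 CPM. Across the 14 gates, Srebf2 correlated with the mean profile of the other 15 synthesis genes at r = 0.46 and Srebf1 at r = -0.05, while Cyp51 stood at 0.88, Fdps at 0.85, Sqle at 0.84 and Hmgcs1 at 0.80. Other enzymes lay below Srebf2, with Mvk at 0.42, Mvd at 0.41, Dhcr7 at -0.02, Sc5d at -0.10 and Lss at -0.44. These r values describe 14 gates that share libraries and free RNA.

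Other synthesis genes had tops elsewhere. Lss, which closes the sterol rings, was highest in mast cells at 25.2 CPM (13.4 to 43.1) and 14.6 (5.88 to 30.2), 6.12-fold and 4.18-fold, from 13 and 7 UMIs, and the only synthesis gene past 2-fold higher in mast cells (all genes 6.12%). Sc5d, the desaturase near the end of the pathway, was highest in neutrophils of library 1 (55.4 CPM from 15 UMIs) and in CD4 T cells of library 2 (36.2). Msmo1 was highest in cDC2 of library 1 (85.9) and in non-classical monocytes of library 2 (65.3). Mvd was highest in classical monocytes of library 1 (19.1) and non-classical monocytes of library 2 (24.5), from 12 UMIs in the latter. Stard4 was highest in regulatory T cells of library 1 (35.3) and CD8 T cells of library 2 (28.2), and Dhcr7 in mast cells (19.4, 10 UMIs) and CD4 T cells (15.8, 17 UMIs). The same gate was on top in both libraries for 8 of the 16 synthesis genes, and its interval stood clear of the runner-up in both libraries for 2 of them, Idi1 and Fdps.

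NK cells had low levels of many of these enzymes. Sqle, Insig1, Idi1, Fdps, Msmo1 and Mvd, 6 of 16, were past 2-fold lower there in both libraries (all genes 17.8%) and 0 were past 2-fold higher (6.39%). Sqle had 3.87 and 2.88 CPM in NK cells, 0.30 and 0.29 times the mean of the other gates, and Fdps had 22.1 and 21.1, 0.45 and 0.41 times. The ratios of the other 5 lay between 0.39 and 0.49, and with cells that held a C1q UMI left out of the other gates, which kept 447 and 762 NK cells, 1 of the 6 was past it. In neutrophils 5 of 16 were past 2-fold lower (all genes 39%), which is near the share of all genes, and in Trdc T cells 3 were (16.5%), namely Sqle, Idi1 and Cyp51. C1q macrophages had 0 of 16 synthesis genes past 2-fold in either direction (all genes 5.09% higher and 17.3% lower), with medians of -0.32 and -0.51 beside -0.13 and -0.19 for all genes.

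The lipid handling genes split over the myeloid gates. Apoe, Abca1, Nr1h3 and Lpl were past 2-fold higher in C1q macrophages (4 of 13, all genes 5.09%), Nr1h3, Lipa, Cd36, Plin2 and Pparg in non-classical monocytes (5 of 13, all genes 6.02%), and Abca1, Soat1 and Plin2 in inflammatory monocytes, which carry Inhba, Thbs1 and Il1rn (3 of 13, all genes 3.98%). Summed without Apoe, the set reached 1094 and 828 CPM in inflammatory monocytes, 999 and 1218 in non-classical monocytes and 806 and 902 in C1q macrophages. Migratory dendritic cells (201 and 238) and CD8 T cells (208 and 215) lay at the other end.

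**Figure D2:**
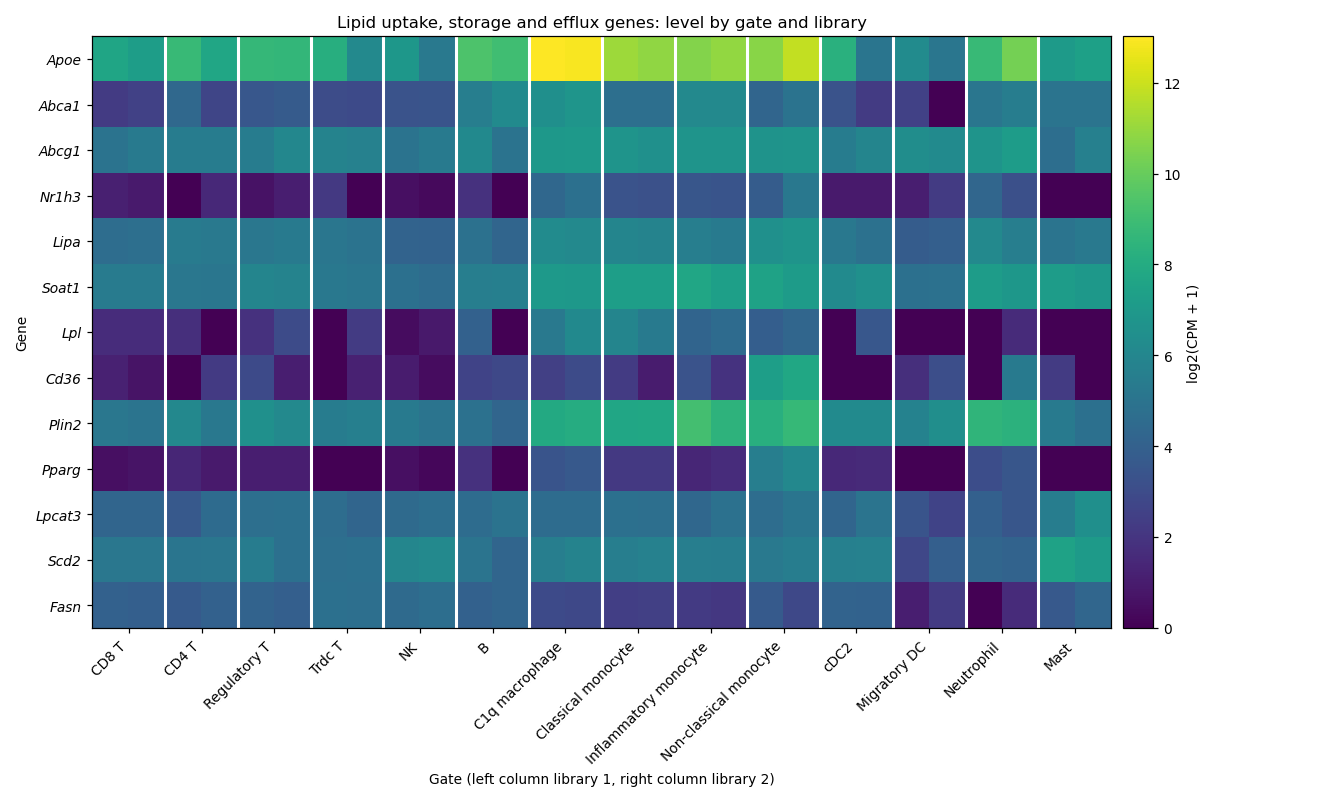
Level of each lipid uptake, storage and efflux gene as log2(CPM + 1), with 1 row per gene and 2 columns per gate (library 1 left, library 2 right). Apoe is brightest in C1q macrophages (8319 and 7746 CPM), and Cd36 and Pparg are brightest in non-classical monocytes.

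Uptake was led by Cd36, the scavenger receptor for fatty acids and oxidised lipoproteins. Cd36 had 158 CPM (135 to 185) and 214 (175 to 259) in non-classical monocytes, 54.8-fold and 39.5-fold the mean of the other gates. No other of the 14 gates passed 9 CPM in library 1, and in library 2 neutrophils had 39.0 CPM from 19 UMIs. Outside those gates, conventional type 1 dendritic cells had 86.2 and 35.2 CPM of Cd36, from 72 and 9 UMIs. Neutrophils of library 1 had 0 Cd36 UMIs in 270959, which allows up to 11.1 CPM by the same limit. Pparg, the nuclear receptor that raises Cd36 transcription, had 46.1 CPM (33.7 to 61.5) and 67.3 (46.4 to 94.6) in the same cells, 20.0-fold and 27.3-fold. C1q macrophages were second for Pparg at 9.47 and 11.5 CPM. The 5 cells with most UMIs held 20.3% and 34.3% of the Cd36 UMIs and 26.1% and 36.4% of the Pparg UMIs. These cells held 1 and 0 UMIs of the 7 alveolar macrophage markers. Lipa, the lysosomal acid lipase, was also highest there at 92.2 and 104 CPM, followed by C1q macrophages at 76.1 and 68.7.

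Lpl, the secreted lipase that frees fatty acids from lipoproteins, was highest in classical monocytes of library 1 (58.8 CPM) and in C1q macrophages of library 2 (71.9), and was at most 22.1 CPM outside those 2 gates. Much of it came from a few cells. Of the 314 Lpl UMIs in library 2 macrophages, 5 cells held 65.9% and 1 cell held 108. In library 1 macrophages 5 cells held 41.5% of 313, and in library 1 classical monocytes 57.7% of 234. Without those cells the 2 macrophage libraries had 22.5 and 24.8 CPM.

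**Figure D3:**
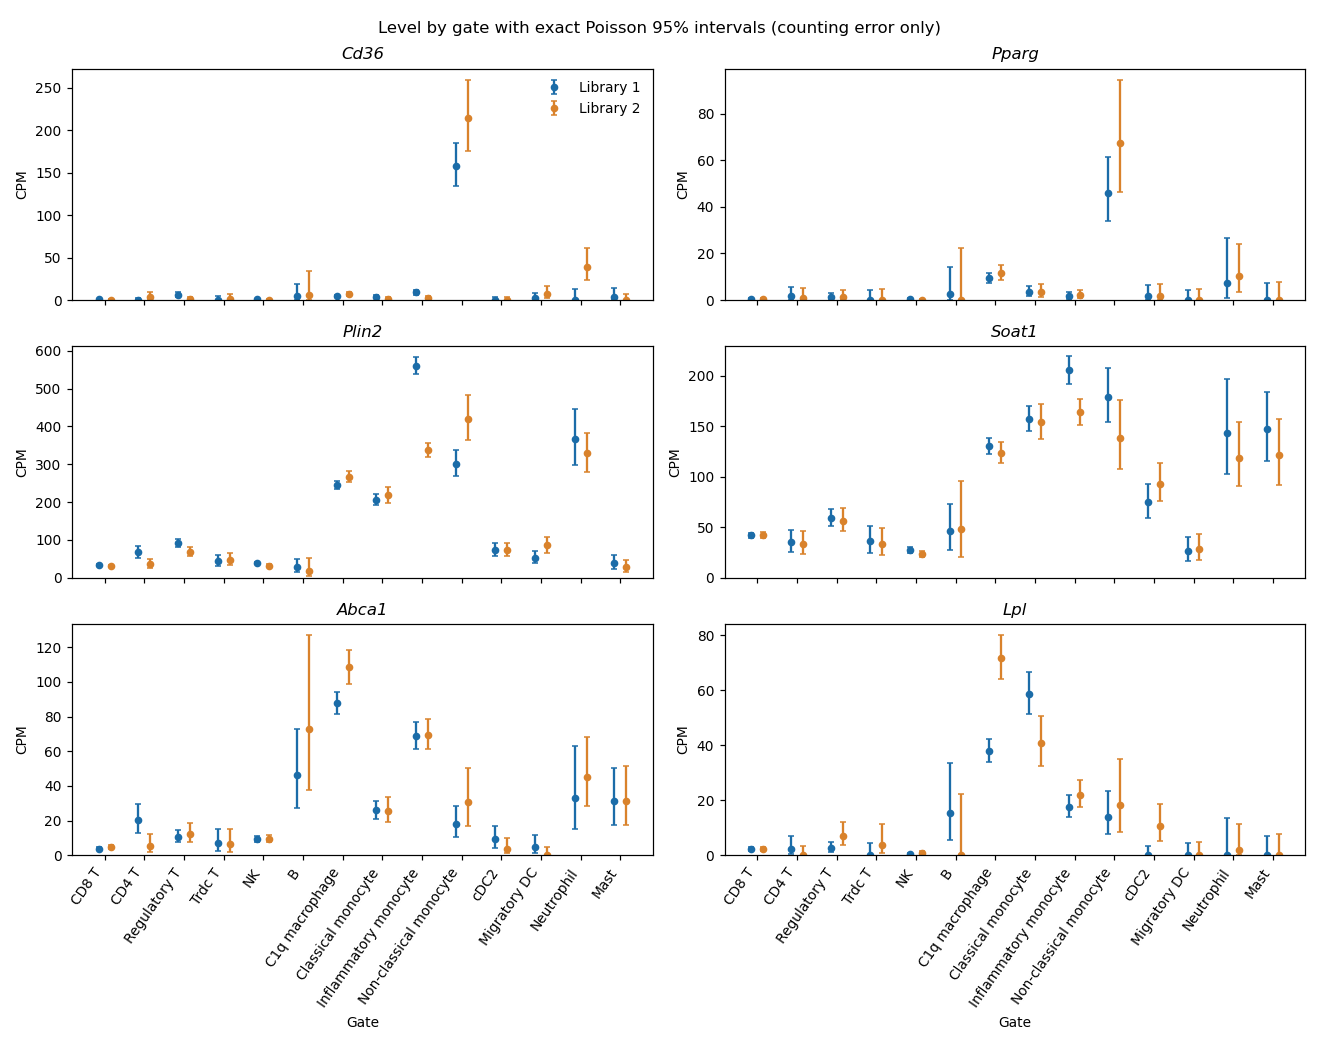
CPM of Cd36, Pparg, Plin2, Soat1, Abca1 and Lpl in each gate, with points for library 1 (blue) and library 2 (orange) and exact Poisson 95% intervals as bars. Cd36 and Pparg stand out in non-classical monocytes in both libraries, while Plin2 in inflammatory monocytes is 561 CPM in library 1 and 337 in library 2.

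Storage genes were high across monocytes. Plin2, the droplet coat protein, was highest in inflammatory monocytes of library 1 at 560.5 CPM and in non-classical monocytes of library 2 at 420.4, with neutrophils at 365 and 328.5 and C1q macrophages at 244 and 267. It was the only member past 2-fold higher in neutrophils (all genes 7.52%), at 2.67-fold and 2.57-fold. Soat1, which esterifies cholesterol, was highest in inflammatory monocytes at 205.5 and 164 CPM, then in non-classical monocytes of library 1 (179) and classical monocytes of library 2 (154). Mast cells (147 and 121) and neutrophils (144 and 119) were not far below for Soat1. T cells, NK cells, B cells and migratory dendritic cells had from 23.7 to 59.1 CPM of Soat1, and cDC2 had 74.9 and 93.2.

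Apoe and Abca1 were highest in C1q macrophages in both libraries, and Abcg1 was highest there in library 1 (121 CPM) and in neutrophils in library 2 (148). Apoe had 8319 and 7746 CPM in C1q macrophages, 12.7-fold and 9.735-fold the mean of the other gates. Abca1, which loads cholesterol on lipid-poor apolipoproteins, had 87.7 CPM (81.4 to 94.3) and 108 (98.7 to 118.5) in C1q macrophages and 68.7 and 69.3 in inflammatory monocytes. Abcg1, which passes cholesterol to larger particles, varied little over the myeloid gates, from 92.7 to 148 CPM across macrophages, monocytes and neutrophils. Migratory dendritic cells kept 83.5 and 74.9 CPM of Abcg1, while 10 of the other 12 lipid genes were past 2-fold lower there (all genes 32.3%). Nr1h3 had 19.6 and 27.5 CPM in macrophages and 13.03 and 36.7 in non-classical monocytes, from 13 and 18 UMIs in the latter.

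Macrophage subsets differed in these genes. Cells with Mrc1, Folr2 and Pf4 (153 and 95 cells) had 13750 and 12440 CPM of Apoe and 149 and 175 of Abca1. Cells with Cxcl9, Cxcl10 and Ms4a4c (145 and 95) had 4735 and 4180 of Apoe and 40.9 and 50.7 of Abca1, but more Abcg1, at 162 and 169 CPM against 97.9 and 102. Cells with Arg1, Spp1 and Hmox1 (48 and 28) had 590 and 376 CPM of Plin2, above the 181 and 291 of the Mrc1 subset. Synthesis genes summed to 338 and 302 CPM in the Mrc1 subset and 326 and 323 in the Cxcl9 subset.

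Mast cells and lymphocytes carried other members. Scd2, a desaturase that makes monounsaturated fatty acids, had 182 CPM (147 to 223) and 138 (107 to 176) in mast cells, 4.94-fold and 3.67-fold, and NK cells came second at 61.6 and 68.6. Lpcat3, which remodels phospholipids, had 44.6 and 89.9 CPM in mast cells, and these 2 were the lipid genes past 2-fold higher there (all genes 6.12%). Fasn, the fatty acid synthase, was highest in Trdc T cells (26.9 and 25.9 CPM) and NK cells (21.8 and 25.2), with overlapping intervals, and the only lipid gene past 2-fold higher in Trdc T cells (all genes 5.74%). Beyond these, 0 of the 29 genes were past 2-fold higher in CD8 T cells (all genes 7.59%), CD4 T cells (6.0%), regulatory T cells (6.34%) and B cells (6.24%). In B cells 1 synthesis gene, Mvd, and 4 lipid genes, Nr1h3, Cd36, Plin2 and Pparg, were past 2-fold lower (29%). Fasn was under 7 CPM in C1q macrophages and in classical and inflammatory monocytes. Of the 13 lipid genes, 8 were past 2-fold lower in CD8 T cells (all genes 16.1%), 9 in NK cells (17.8%), 7 in CD4 T cells (13.9%), 5 in regulatory T cells (11.5%) and 5 in cDC2 (22.1%). The mean of the other gates, to which these were compared, is raised by the myeloid gates where such genes peak. As means of the libraries, Apoe had 8032 CPM in its highest gate and a median of 364 over the gates, and Cd36 had 186 and 3.13.

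Apoe outside macrophages is given beside the C1q RNA found there. The ratio of Apoe to C1q UMIs was 0.60 and 0.55 in macrophages, 0.72 and 1.04 in migratory dendritic cells and 1.23 and 1.12 in NK cells. It was 3.75 and 4.91 in CD4 T cells, 3.66 and 8.02 in regulatory T cells, 5.82 and 7.91 in B cells and 3.28 and 16.8 in neutrophils. In classical monocytes it was 16.6 and 25.03, in inflammatory monocytes 11.4 and 26.4 and in non-classical monocytes 13.6 and 75.3. Monocytes held far more Apoe for each C1q UMI than macrophages did, at Apoe levels of 1568 to 3690 CPM. The gates set part of this difference. Macrophages needed at least 15 C1q UMIs, and cells of every other gate had fewer than 10. In CD4 T cells 5 cells held 71.5% and 71.2% of the Apoe UMIs.

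Cycling cells had more synthesis RNA. Cells with at least 10 UMIs of Mki67, Top2a, Birc5, Ccnb1 and Cdk1 were compared with the other cells of their gate, and a gene was called past 1.5-fold the same way in both libraries. Among T cells of all kinds (325 and 170 cycling, 3099 and 2622 other), Sqle, Idi1, Fdft1, Cyp51, Fdps, Stard4 and Mvk, 7 of 16, were past 1.5-fold higher (all of 12818 genes 9.26%) and 0 were past it lower (12.7%). The medians of the 16 were 0.70 and 0.55 on the log2 scale, beside -0.11 and -0.09 for all genes, and 14 of 16 were above 0 in both libraries. Idi1 had 17.1 CPM in other and 40.2 in cycling T cells of library 1, and 15.5 and 40.7 in library 2. The log2 ratios were 1.24 (1.02 to 1.45) and 1.40 (1.10 to 1.68). Cyp51 went from 28.5 to 60.5 CPM and from 23.4 to 52.8, and Fdps from 25.7 to 48.4 and from 24.7 to 57.55. Sqle went from 7.86 to 16.2 CPM and from 6.77 to 16.3. The cycling cells were deeper, with a median of 19899 and 19698.5 UMIs against 7284 and 6815. They also held more CD8 T cells, 79.7% and 83.5% against 66.5% and 71.2%. Within CD8 T cells alone 8 of 16 were past 1.5-fold higher, and after thinning each cell to 3000 UMIs 9 were.

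**Figure D4:**
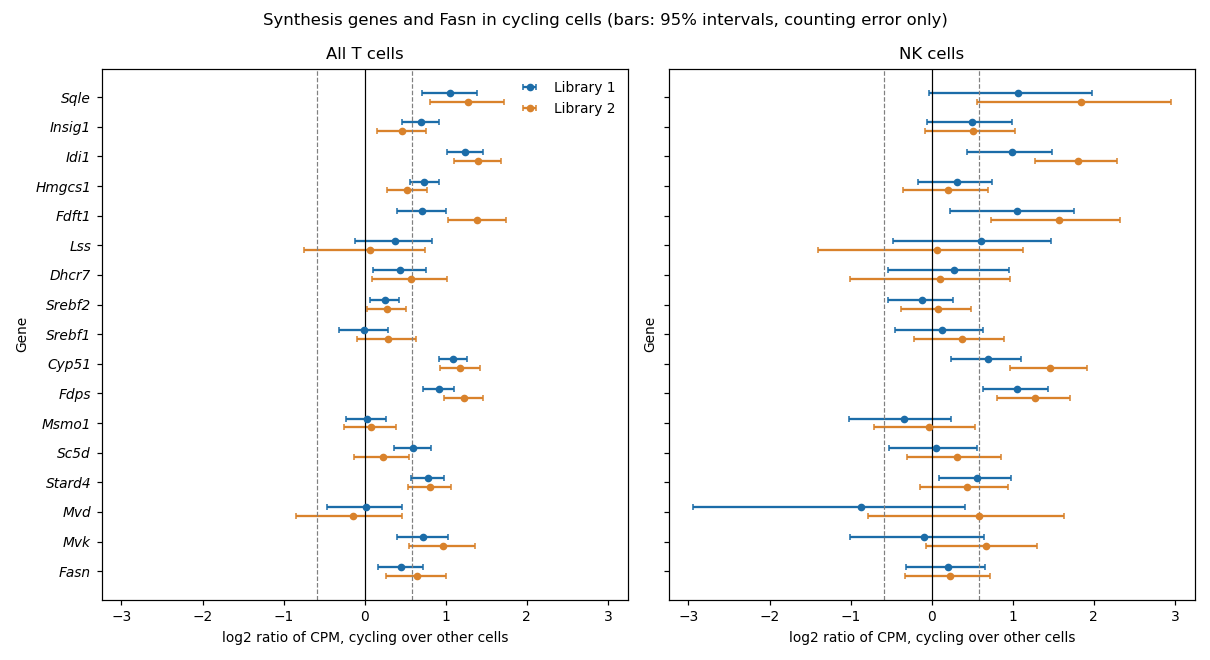
log2 ratio of CPM in cycling cells over other cells for the 16 synthesis genes and Fasn, in T cells (left) and NK cells (right), with exact 95% intervals as bars and dashed lines at 1.5-fold. Idi1, Cyp51, Fdps, Fdft1 and Sqle lie right of the line in both libraries in both panels, while Srebf2, Srebf1 and Msmo1 lie between the lines.

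In NK cells (72 and 56 cycling) the same comparison called Sqle, Idi1, Fdft1, Cyp51 and Fdps higher, 5 of 16 (all genes 9.96%), and 0 lower (7.27%). Idi1 went from 11.8 to 23.3 CPM in library 1 and from 11.2 to 38.8 in library 2. In T cells Srebf2, Srebf1, Mvd and Msmo1 were not past 1.5-fold in either library. Among 15 other genes of the synthesis pathway, those past it higher in T cells included Acat2, Hsd17b7 and Tmem97 and 0 were past it lower, and Hsd17b7 and Tmem97 were also past it higher in NK cells. Tmem97, a sterol-responsive membrane protein, went from 10.1 to 35.6 CPM and from 8.66 to 40.9 in T cells, a log2 ratio of 1.81 and 2.24.

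The exporters moved the other way in cycling cells. Abcg1 went from 37.8 to 17.5 CPM and from 46.6 to 20.8 in T cells, and from 32.1 to 15.1 and from 42.6 to 19.4 in NK cells. Abca1 went from 6.30 to 2.30 and from 7.26 to 1.38 CPM in T cells, on 16 and 5 UMIs in the cycling cells. In NK cells it went from 9.71 to 4.65 and from 10.5 to 2.33, on 8 and 3 UMIs. With the cycling minimum doubled, the count of lipid genes past 1.5-fold lower moved in 2 gates and stayed close in 1. Nr1h3 was also called lower in T cells, from 5 and 0 UMIs in the cycling cells and with intervals that held 0. Apoe was past 1.5-fold lower in NK cells, from 124 to 74.5 and from 39.3 to 20.9 CPM, and the C1q sum beside it went from 96.7 to 85.5 and from 34.0 to 27.2. In T cells the C1q sum went from 114 to 87.0 and from 49.9 to 37.1, less than Abcg1 did. Scd2 was the lipid gene past 1.5-fold higher in T cells (all genes 9.26%), from 31.1 to 49.8 and from 31.4 to 49.0 CPM. Mylip, a ubiquitin ligase and a target of LXR, was past 1.5-fold lower in cycling T cells (all genes 12.7%), NK cells (7.27%) and C1q macrophages (5.97%). The macrophage call rested on 15 and 4 UMIs in the cycling cells, and its interval in library 2 held 0 (-2.82 to 0.48). Mylip is 1 of 24 other lipid genes looked at. Of those tested, 6 of 21 were lower and 0 higher in T cells, 3 of 18 and 2 in NK cells, and 6 of 20 and 2 in macrophages.

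C1q macrophages had fewer cycling cells, 36 and 15. Idi1 was past 1.5-fold higher, 1 of 15 synthesis genes tested and no larger a share than the 11.2% of all genes. It went from 15.1 to 29.96 CPM and from 12.9 to 29.5 on 24 and 8 UMIs, and its interval in library 2 held 0 (-0.10 to 2.27). Cyp51 and Fdps were not past 1.5-fold, on 10 and 8 UMIs in the cycling cells of library 2. Fasn had the larger ratio, from 4.98 to 21.2 CPM and from 4.39 to 33.2 on 17 and 9 UMIs, a log2 ratio of 2.12 (1.17 to 2.96) and 2.96 (1.58 to 4.15). The count of synthesis genes past 1.5-fold in these macrophages was 2 after thinning and 0 with the cycling minimum doubled.

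Between the libraries, synthesis RNA was close in most gates. A pair of 1 gene and 1 gate was compared when both libraries together had at least 50 UMIs, which held for 221 of 406 pairs. Of these, 25 were past 1.5-fold (11.3%), 9 higher and 16 lower in library 2, and they belonged to 13 genes. Over all genes, 8.96% of 85343 such pairs were past 1.5-fold. In CD8 T cells (all genes 3.6% higher and 3.51% lower) and in NK cells (2.19% and 3.26%) 0 of 16 synthesis genes were past it. The summed synthesis ratio of library 2 over library 1 was -0.04 (-0.09 to 0.01) on the log2 scale in CD8 T cells, 0.04 in NK cells and -0.01 in C1q macrophages. No member was past 1.5-fold higher in CD4 T cells (all genes 4.36%), Trdc T cells (6.21%) and B cells (10.3%), or lower in B cells (5.3%), C1q macrophages (5.31%) and non-classical monocytes (5.33%). Few members had the UMIs to be compared in some of these gates. In B cells 1 synthesis and 1 lipid gene did, in Trdc T cells 0 and 5, and in CD4 T cells 7 and 6. Non-classical monocytes had 6 and 8, and C1q macrophages 15 and 13.

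**Figure D5:**
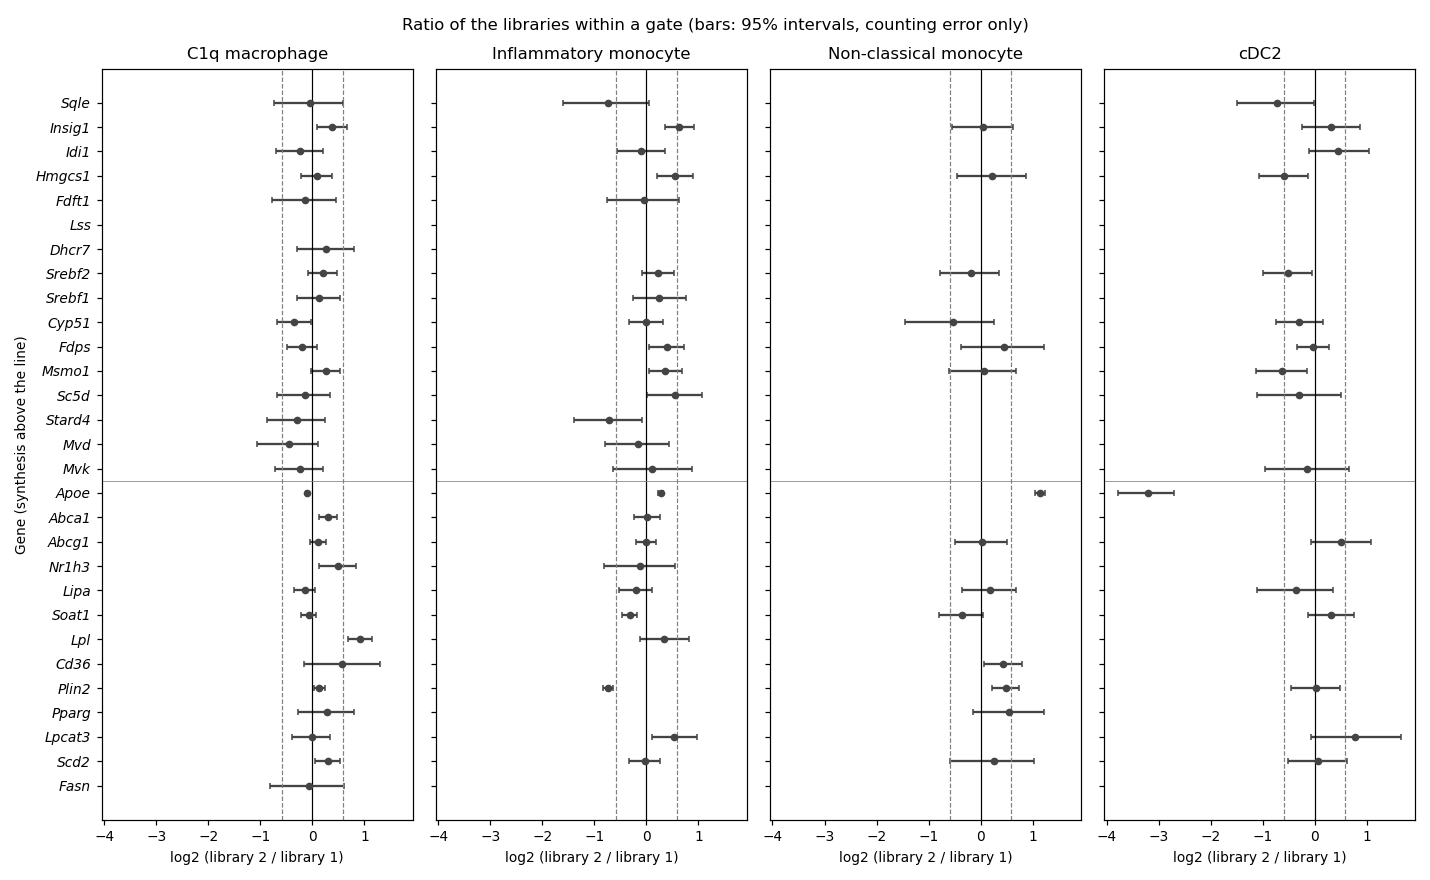
log2 ratio of library 2 over library 1 for each member with at least 50 UMIs in the gate, in C1q macrophages, inflammatory monocytes, non-classical monocytes and cDC2, with exact 95% intervals as bars and dashed lines at 1.5-fold. Apoe lies far right in non-classical monocytes (1.15) and far left in cDC2 (-3.20), and Plin2 lies left in inflammatory monocytes (-0.73).

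Inflammatory monocytes held the best counted differences apart from Apoe. Plin2 had 560.5 CPM from 2441 UMIs in library 1 and 336.9 from 1235 in library 2, a log2 ratio of -0.73 (-0.83 to -0.64), and was the only lipid gene past 1.5-fold lower there (all genes 3.86%). Its 5 richest cells held 7.91% and 15.1% of the UMIs, and without them the ratio was -0.85. Insig1 went the other way, from 41.8 to 64.9 CPM, a log2 ratio of 0.63 (0.35 to 0.92) against 4.26% of genes past 1.5-fold higher. Sqle, at 9.185 and 5.46 CPM, and Stard4, at 14.0 and 8.46, were past 1.5-fold lower, and the interval of Sqle held 0. Soat1 fell short, at 205.5 and 164 CPM. Fabp5, a fatty acid carrier outside the 29 genes, had 1014 and 449.9 CPM in the same cells.

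Other synthesis pairs were thinner. In classical monocytes Hmgcs1 (49.2 and 30.6 CPM), Sqle (13.8 and 8.88) and Mvk (13.3 and 6.91) were past 1.5-fold lower in library 2 (all genes 3.23%), and the interval of Sqle held 0. In cDC2 Sqle (41.1 and 24.7), Hmgcs1 (93.2 and 61.8) and Msmo1 (85.9 and 55.1) were lower (4.92%), and without the 5 richest cells of each gene the log2 ratios of Sqle and Msmo1 were -0.48 and -0.31, inside 1.5-fold. In migratory dendritic cells Srebf2 was higher in library 2, at 67.2 and 102 CPM (all genes 9.31%).

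Among lipid genes, Lpl in C1q macrophages was past 1.5-fold higher in library 2 (38.0 and 71.9 CPM, log2 ratio 0.92, all genes 3.11%), and 0.15 (-0.21 to 0.50) without the 5 richest cells of each library. Of the 25 pairs, 14 had over 40% of their UMIs in the 5 richest cells of a library. Without those cells 21 stayed past 1.5-fold, but some of these then had intervals that held 0, such as Hmgcs1 in cDC2 (-1.26 to 0.05). In regulatory T cells Abcg1 was higher, at 42.7 and 65.3 CPM (all genes 5.05%), and Scd2 lower, at 43.9 and 26.6 (4.54%), but Abcg1 was at 0.36 without its 5 richest cells and Scd2 at 0.475, the other direction, after thinning each cell to 3000 UMIs. Lpcat3 was higher in cDC2 (18.3 and 31.4, all genes 5.73%, interval holding 0) and in mast cells (44.6 and 89.9, all genes 10.8%). Plin2 was lower in CD4 T cells (66.6 and 36.2, all genes 4.57%) and higher in migratory dendritic cells (53.3 and 85.3). The migratory dendritic cell ratio was -0.185 with barcodes of 2 lineages kept, and its interval held 0 without the 5 richest cells (0.63, -0.15 to 1.44), as did that of CD4 T cells (-0.73, -1.66 to 0.11).

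Apoe accounted for 7 of the 25 pairs. It was lower in library 2 in CD4 T cells (439 and 209.7 CPM), Trdc T cells (287 and 68.7, all genes 4.38%), NK cells (117.5 and 37.1), cDC2 (301.5 and 32.3) and migratory dendritic cells (77.7 and 33.6, all genes 4.74%). It was higher in non-classical monocytes (1664 and 3690, all genes 4.95%) and neutrophils (435.5 and 1244, all genes 10.5%). In macrophages, where it was highest, it differed little, at a log2 ratio of -0.10. With cells that held a C1q UMI left out, the Apoe ratio in CD4 T cells turned to 0.407, with an interval that held 0. The C1q sum was lower in library 2 along with Apoe in CD4 T cells (117 and 42.7 CPM), Trdc T cells (125 and 47.9), NK cells (95.3 and 33.2), migratory dendritic cells (107.8 and 32.3) and cDC2 (71.3 and 61.8). It was also lower where Apoe was higher, in non-classical monocytes (122 and 49.0) and neutrophils (132.9 and 73.9). In cDC2 of library 1, 5 cells held 81.8% of the 330 Apoe UMIs and 1 cell held 211. Without the 5 richest cells of each library the ratio in non-classical monocytes was 1.05, in neutrophils 1.09 and in cDC2 -1.99. The part of free macrophage RNA in the lymphocyte and dendritic cell differences was not tested.

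In the macrophage subsets more pairs were past 1.5-fold on fewer cells. In the Mrc1 subset Plin2 (181 and 291 CPM) and Nr1h3 (19.1 and 32.8) were higher in library 2 (all genes 4.87%) and Cyp51 (38.3 and 23.2) lower (6.02%). In the Arg1 subset Apoe (2665 and 5177), Abca1 (90.7 and 158) and Scd2 (52.3 and 88.4) were higher (10.7%), and Lipa (115 and 44.2), Soat1 (209 and 133) and Plin2 (590 and 376) lower (7.61%). The interval of Scd2 held 0 (-0.04 to 1.55). Plin2 thus lay lower in library 2 in both inflammatory monocytes and the Arg1 macrophages and higher in the Mrc1 macrophages. The markers of the Arg1 subset also differed between libraries, with a C1q sum of 6718 and 10920 CPM. Its cells had a median Arg1, Spp1 and Hmox1 sum of 30 and 16.5 UMIs, and the part of this in the ratios was not tested. In the Cxcl9 subset Hmgcs1 (26.1 and 42.2), Lpl (14.2 and 22.0) and Scd2 (25 and 38.9) were higher (5.37%) and Lipa (51.1 and 32.1) lower (5.04%). The interval of Lpl held 0 (-0.22 to 1.48).

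Across the 14 gates the 2 sets varied in different ways. Over pairs of genes, the median correlation of log2(CPM + 1) was 0.55 within the lipid set (78 pairs), 0.18 within the synthesis set (120 pairs) and -0.04 between the sets (208 pairs), over gates that share libraries. The other genes most like the mean synthesis profile, out of 5911 with a mean of at least 20 CPM, included Casp6 (r = 0.85), Tpd52l2 (0.80), Arl1, Mrpl43, Med29, Xpnpep1, Aldh9a1, Yipf1 and Ndufv2 (0.74). At rank 5911 of 5911 stood Mylip, with r = -0.80, from 8.22 and 4.75 CPM in cDC2 and 10.4 and 10.3 in migratory dendritic cells to 71.9 and 48.5 in B cells.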

How the data were processed

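The authors' deposited matrix holds raw UMI counts per gene and barcode, made with Cell Ranger 6.1.2 on mm10 per the submitters' processing notes; filters applied before deposit are not given in the sources used here. Per-sample columns of other series numbered 0. A barcode was kept when it had 500 genes or more and mitochondrial genes made up no more than 10% of its UMIs, which left out 456 and 366 barcodes, and no doublet caller was run. Gates rest on summed UMIs of marker genes, with minimums of 1 to 30 UMIs: 5 for T and NK, 15 for C1q, 10 for cDC2 and classical monocyte, 15 for migratory dendritic cell, 7 for inflammatory and 5 for non-classical monocyte markers. The minimum of the Arg1 subset was lowered from 30 to 10 after member values had been seen (25 and 3 cells at 30).

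Counts were summed by gate and library and given as CPM. Library ratios used a pseudocount of 0.5 UMI, at least 50 UMIs and exact conditional binomial intervals, and CPM used exact Poisson intervals. Gate ratios divided a gate's CPM by the unweighted mean of the other 13 gates. Every member was named, with both values where past 1.5-fold between libraries, along with the 10 genes most like the synthesis profile, and some genes of these lists are not reported here. Thinning to 3000 UMIs left out from 0 to 107 cells in a gate and library, neutrophils losing most. The library ratio and its interval were tested on simulated counts for CD8 T cells and cDC2. The simulated counts held counting error only, and no other step was tested in this way. Members, lists and gates were chosen with earlier results of these data known. Alternatives changed filters, gate minimums, thinning, scaling, pseudocount, UMI minimum and fold. Added after seeing the data were CD8 T cells alone for cycling, cells with a C1q UMI left out, and the 5 richest cells left out. Python 3.11.15, numpy 2.4.6, scipy 1.17.1, pandas 2.3.3 and matplotlib 3.10.9 were used.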

Additional observations from a re-analysis of the deposited data

Results flagged for a closer look

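The ratio of library 2 over library 1 ran in opposite directions between gates for Apoe and Plin2, and the difference between gates was not tested. For Apoe the log2 ratio was -1.06 in CD4 T cells, -2.05 in Trdc T cells, -1.66 in NK cells, -3.20 in cDC2 and -1.19 in migratory dendritic cells, all lower in library 2, and in CD4 T cells it turned to 0.407 with cells that held a C1q UMI left out. It was 1.15 in non-classical monocytes and 1.51 in neutrophils, both higher in library 2. For Plin2 the log2 ratio was -0.87 in CD4 T cells and -0.73 in inflammatory monocytes, and 0.67 in migratory dendritic cells. Plin2 in inflammatory monocytes rests on 2441 and 1235 UMIs, and in migratory dendritic cells on 46 and 66. The migratory dendritic cell ratio turned to -0.185 with barcodes of 2 lineages kept, and without the 5 richest cells its interval held 0 (-0.15 to 1.44).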

How the results depend on the processing

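No paired analysis was possible because each genotype has 1 sample and the libraries carry no replicate numbers, and for the same reason no replicate could be left out. Over all alternatives, 55 counts and 118 set ratios between libraries stayed close to the values reported, and 15 and 10 moved. Of the single-gene ratios, 244 stayed close, 27 moved and 4 changed direction. Of the CPM levels, 92 stayed within the interval first given and 44 moved out of it. With gate minimums doubled, the synthesis sum was 744 and 754 CPM in cDC2 and 570 and 588 in regulatory T cells, the synthesis log2 ratio in cDC2 was 0.0192 and the lipid ratio in inflammatory monocytes -0.488. With barcodes of 2 lineages kept, the synthesis sum in cDC2 was 643 and 598 CPM, the lipid ratio was 0.0716 in C1q macrophages and -0.135 in cDC2, and Plin2 in migratory dendritic cells reversed to -0.185. With cells thinned, the synthesis sum was 892 CPM in cDC2 of library 1, 234 and 244 in NK cells, 463 and 432 in regulatory T cells and 283 in C1q macrophages of library 2. Thinning also gave C1q macrophages a synthesis ratio of -0.116, a lipid ratio of 0.0945 and 2 synthesis genes higher in cycling cells, and reversed Scd2 in regulatory T cells to 0.475. Median-of-ratios scaling gave 5 pairs higher in library 2, a lipid ratio of -0.493 in inflammatory monocytes and 5 synthesis genes higher in migratory dendritic cells. With no UMI minimum, 55 pairs were higher and 54 lower, at a lower fold limit 37 and 35, and a doubled cycling minimum left 0 synthesis genes in C1q macrophages. With cells that held a C1q UMI left out, an alternative added after seeing the data that kept 37.5% to 82.4% of a gate's cells, 10 pairs were lower. The synthesis ratio was then 0.0221 in CD8 T cells, 0.0604 in classical monocytes and -0.484 in cDC2, Scd2 in regulatory T cells reversed to 0.2 and Apoe in CD4 T cells to 0.407, 0 synthesis genes were higher in migratory dendritic cells and 1 lower in NK cells. The cause of these changes was not tested. Thinning and left-out cells leave fewer UMIs, and leaving out cells with a C1q UMI also changes which cells remain. Gates of under 100 cells and genes of under 50 UMIs are limited by depth.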
